A study of Homo sapiens with 24 samples.

Results

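The variants described are single-base changes in human 3′ untranslated regions whose reference and alternative reporter plasmids were both well represented in SH-SY5Y, a human neuroblastoma line. A variant was included if each of its 2 alleles had a mean of at least 200 counts over the 6 SH-SY5Y plasmid DNA libraries, whatever its RNA counts were. This held for 10303 of 13515 variants (76.2%), at 8677 of 11265 SNPs and in 1542 of 1637 genes. The study is a massively parallel reporter assay, in which a pool of plasmids, each carrying a 3′ UTR fragment with one allele, was transfected with a lipid reagent and counted as plasmid DNA and as polyadenylated RNA. SH-SY5Y gave 6 DNA and 6 RNA libraries, and a microglia line immortalised with SV40 gave the same numbers. The series' design text calls the 6 of a group biological replicates, no other treatment is given, and each line stands for its cell type alone. Reporter counts hold no record of the cells' own transcripts, so the lines could not be checked against cell type markers.

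A 3′ UTR is the part of an mRNA that follows the stop codon. It carries sites for microRNAs and for RNA-binding proteins, among them AU-rich elements and Pumilio sites, and these set how long an mRNA lasts, how well it is translated and where in a neuron it is kept. It also holds the signal at which the transcript is cleaved and polyadenylated. A single-base variant can make or remove such a site, and in a reporter that carries the fragment the change is read as a shift in the share of the allele in RNA against its share in plasmid DNA. The sequences of the fragments were not used here, so the variants are named by gene, SNP and bases as the deposited table spells them.

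Total counts ran from 16556722 to 19101103 in the DNA libraries and from 11764547 to 18100832 in the RNA libraries. The rarer allele of a well-covered variant had a median of 599 counts per DNA library and 461 per RNA library. The alternative allele made up 12.1% to 90.1% of a variant's DNA counts, with a median of 50.1%. Allele ratios repeated well in DNA and poorly in RNA. The standard deviation of the log2 ratio over 6 libraries had a median of 0.15 in DNA and 0.64 in RNA, where counting error alone would give 0.077 and 0.0878 if each count were a separate molecule. In microglia the same median was 0.30 in RNA and also 0.30 in DNA. A variant's effect is its RNA log2 allele ratio (alternative over reference) less its DNA log2 ratio, and is above 0 where the alternative allele gained share from plasmid to RNA. Between any 2 SH-SY5Y replicates the effects of all well-covered variants correlated at r = 0.0335 to 0.0879 across variants. The replicates of a variant share its DNA mean.

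Most well-covered variants had small measured effects. The middle 90% of effects lay between log2 -0.60 and 0.60, the median was -0.0033 and the median size was 0.21. A size over log2 1 was measured for 221 variants (2.15%). For 6741 variants (65.4%) the 95% interval of the effect (limma) lay wholly within 2-fold in either direction, against 7.04% of the tested variants with less coverage. By edgeR's quasi-likelihood test, 37 of the 10303 passed an adjusted p of 0.05, 23 towards the alternative (0.223%, against 0.207% of all tested) and 14 towards the reference (0.136%, against 0.192%). The count was 20 without replicate 1, 22 without replicate 2 and 29 without replicate 3. Without replicate 4, 5 or 6 it was 20, 20 and 23. It was 15 with limma and 223 with DESeq2, where the balance turned (103 higher and 120 lower). P-values were adjusted over all 13031 tested variants. The share of 0.359% was near the background of 0.399% over all tested variants. An unadjusted p under 0.05 was found for 861 (8.36%, against 8.73% of all tested). In all 37 the 6 RNA libraries lay on one side of the 6 DNA libraries with no overlap, as in 184 well-covered variants in all (1.79%, background 1.78%). The median size of the called effects was log2 1.07, with a range of 0.59 to 3.70. The 37 calls lie at 35 SNPs in 34 genes.

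The calls are given below by the roles of their genes, an order set after they were known, so that the number of calls in a role has no background and is not a result. The largest effects were those of STAT6 and PDLIM5, which are described first with the other signalling genes. At STAT6 rs324015 A>G, in the gene for the transcription factor of interleukin-4 signalling (chromosome 12, 57095408 to 57111362 on GRCh38.p14, the RefSeq position of the gene), the G allele made up a median of 31.7% (31.1% to 33.3%) of the allele counts in the 6 DNA libraries. In the 6 RNA libraries it made up a median of 82.5% (80.4% to 87.4%), an effect of log2 3.39 ± 0.28 (SD, n = 6, edgeR adjusted p = 6.04e-12). Each allele can also be set against the typical oligo of the pool, by its log2 ratio of RNA to DNA with the median of the well-covered oligos at 0. On that scale the STAT6 reference oligo was at 0.34 ± 0.28 and the G oligo at 3.73 ± 0.15, so the G oligo stood far above the pool while the A oligo lay near it. PDLIM5 rs1139697 T>G, in the gene of a scaffold with PDZ and LIM domains (chromosome 4, 94451942 to 94668223), had the same form. Its G allele rose from a median of 55.9% (53.2% to 58.2%) in DNA to a median of 94.3% (93.1% to 95.5%) in RNA, a 13.0-fold effect (log2 3.70 ± 0.27), with the T oligo at -0.18 ± 0.41 and the G oligo at 3.52 ± 0.23 against the pool. The ranges in DNA and RNA lay far apart at both SNPs, and both replicate SDs were under the median of the well-covered variants (0.64). GAB2 rs112191911 G>A, in a docking adaptor of receptor tyrosine kinases (chromosome 11, 78215293 to 78417820), rose by log2 1.00 ± 0.24, with a median of 46.3% (44.2% to 49.4%) in DNA and a median of 64.0% (57.4% to 67.5%) in RNA. A lower alternative allele was measured for MAP2K5 rs12900208 C>G, in the kinase that activates ERK5 (chromosome 15, 67542703 to 67807114). Its G allele fell from a median of 49.3% (46.8% to 52.0%) in DNA to a median of 24.1% (10.8% to 34.5%) in RNA (log2 -1.70 ± 0.72), and the low level was in the G oligo (-1.58 ± 0.55 against the pool), with the C oligo at 0.14 ± 0.17.

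The gene of the chemokine CXCL12, the ligand of CXCR4 (chromosome 10, 44370165 to 44385097), held 2 calls of opposite sign, both T>C changes. The C allele of rs169097 fell from a median of 39.8% (35.6% to 47.3%) in DNA to a median of 17.0% (14.8% to 29.4%) in RNA (log2 -1.56 ± 0.47), and the C allele of rs1065297 rose from a median of 62.7% (60.6% to 66.9%) to a median of 79.4% (69.3% to 85.7%) (log2 1.15 ± 0.51). They differed in which oligo was low: at rs169097 the C oligo was at -1.36 ± 0.48 and the T oligo at 0.20 ± 0.44 against the pool, while at rs1065297 the T oligo was at -1.54 ± 0.50 and the C oligo at -0.38 ± 0.35. The 21 other well-covered variants of CXCL12 ranged from -0.60 to 0.56, none with an unadjusted p under 0.05. GNAL rs77723282 G>C, in the G protein subunit of striatal dopamine receptor signalling (chromosome 18, 11689264 to 11885685), rose by log2 0.91 ± 0.21. Its C oligo was among the more active ones (1.20 ± 0.17 against the pool). SEMA4F rs60117021 C>G, in a semaphorin gene (chromosome 2, 74654247 to 74709411), rose by 1.07 ± 0.60 and DGKI rs2351138 G>A, in a diacylglycerol kinase gene (chromosome 7, 137381037 to 137846974), fell (log2 -0.80 ± 0.32). Among the signalling genes, the calls of STAT6, PDLIM5, GAB2 and MAP2K5 were kept with each replicate left out and with limma. Calls were lost with 1 replicate left out for CXCL12 rs169097 T>C without replicate 1, 4, 5 or 6 (-1.71 to -1.39 over the 6 fits), CXCL12 rs1065297 T>C without replicate 1, 2, 4, 5 or 6 (1.00 to 1.30 over the 6 fits), GNAL rs77723282 G>C without replicate 1, 4, 5 or 6 (0.81 to 1.00 over the 6 fits), SEMA4F rs60117021 C>G without replicate 1, 2, 3, 4 or 5 (0.94 to 1.22 over the 6 fits) and DGKI rs2351138 G>A without replicate 1, 2, 3, 4 or 6 (-0.91 to -0.73 over the 6 fits). Limma on log2 ratios also ended those of CXCL12 rs1065297, DGKI and SEMA4F (adjusted p = 0.0772, 0.0919 and 0.132).

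Among transporters and other membrane proteins, SLC39A8 rs151371 G>A, in the zinc and manganese importer (chromosome 4, 102251041 to 102345482), rose from a median of 51.7% (47.7% to 55.6%) in DNA to a median of 76.4% (72.9% to 88.1%) in RNA (log2 1.75 ± 0.52, edgeR adjusted p = 0.00302). TTYH3 rs114755822 G>A, in a tweety family membrane protein gene (chromosome 7, 2631986 to 2664802), rose from a median of 50.2% (46.2% to 51.9%) to a median of 79.7% (72.5% to 90.1%) (log2 2.20 ± 0.85). In both, the reference oligo was the one far from the pool, at -1.47 ± 0.57 for SLC39A8 and -1.47 ± 0.60 for TTYH3, and the A oligos were at 0.30 ± 0.15 and 0.75 ± 0.35. ZDHHC5 rs1783979 T>A, in a palmitoyltransferase gene (chromosome 11, 57668114 to 57701182), rose by 1.01 ± 0.33. CHRNB4 rs80037964 C>A, in a nicotinic acetylcholine receptor subunit gene (chromosome 15, 78624111 to 78661641), rose by 0.72 ± 0.40, from a median of 49.8% (49.1% to 51.1%) in DNA to a median of 64.1% (53.2% to 68.3%) in RNA. TMEM245, a transmembrane protein gene (chromosome 9, 109015135 to 109119947), had calls for both alternatives of rs58928086, T>C at 0.62 ± 0.22 and T>A at 0.61 ± 0.24. All 3 of its oligos were active, with the T oligo at 0.99 ± 0.29, the C oligo at 1.61 ± 0.31 and the A oligo at 1.61 ± 0.16 against the pool. SLC39A8 and TTYH3 kept their calls with each replicate left out. Calls were lost for ZDHHC5 rs1783979 T>A without replicate 1 or 4 (0.95 to 1.14 over the 6 fits), CHRNB4 rs80037964 C>A without replicate 3, 4, 5 or 6 (0.64 to 0.84 over the 6 fits), TMEM245 rs58928086 T>C without replicate 1, 2, 3, 4, 5 or 6 (0.55 to 0.68 over the 6 fits) and TMEM245 rs58928086 T>A without replicate 1, 2, 3, 4 or 5 (0.55 to 0.70 over the 6 fits). Limma ended those of CHRNB4 and of TMEM245 T>C and T>A (adjusted p = 0.187, 0.125 and 0.155), and TMM scaling that of CHRNB4 (edgeR adjusted p = 0.0553).

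Among enzymes and metabolic proteins, ADH1C rs2298753 A>C, in a class I alcohol dehydrogenase gene (chromosome 4, 99336497 to 99352746), had its C allele at a median of 52.5% (51.6% to 53.2%) in DNA and at a median of 28.8% (16.4% to 31.3%) in RNA, an effect of log2 -1.59 ± 0.45 (SD, n = 6, edgeR adjusted p = 0.000975). The A oligo lay at the level of the pool (0.07 ± 0.37) and the C oligo below it (-1.53 ± 0.40). ISCU rs76457039 A>G, in the scaffold protein on which iron-sulfur clusters are built (chromosome 12, 108561463 to 108569384), fell from a median of 42.4% (39.9% to 44.2%) to a median of 21.3% (14.0% to 32.8%) (log2 -1.45 ± 0.53). TSTA3 rs75900260 A>G, in the gene for GDP-fucose synthase (now GFUS; chromosome 8, 143612618 to 143618048), was lower as well (log2 -0.78 ± 0.26). SPTSSB rs163327 T>A, in a small subunit of serine palmitoyltransferase, which starts sphingolipid synthesis (chromosome 3, 161344798 to 161371517), rose from a median of 50.9% (46.7% to 60.2%) in DNA to a median of 77.4% (71.0% to 92.6%) in RNA (log2 1.83 ± 0.85). Its replicates ranged widely, from 1.19 to 3.53, and its T oligo had the largest SD among the reference oligos of the calls (-1.54 ± 1.097 against the pool). ADH1C and ISCU kept their calls with each replicate left out. Calls were lost for TSTA3 rs75900260 A>G without replicate 1, 5 or 6 (-0.83 to -0.67 over the 6 fits) and SPTSSB rs163327 T>A without replicate 1, 2, 4 or 5 (1.59 to 1.98 over the 6 fits). Limma ended those of TSTA3 and SPTSSB (adjusted p = 0.0718 and 0.0603).

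Among genes of endosomes, lysosomes and membrane traffic, ATG13 rs7113453 G>A, whose protein belongs to the ULK1 complex at the start of autophagy (chromosome 11, 46617553 to 46674518), rose from a median of 54.8% (51.4% to 57.5%) in DNA to a median of 77.3% (66.8% to 85.6%) in RNA (log2 1.54 ± 0.77). C16orf62 rs116582019 C>A, in a gene now named VPS35L whose protein is a subunit of the endosomal retriever complex (chromosome 16, 19555703 to 19701163), rose from a median of 43.5% (41.5% to 45.3%) to a median of 66.2% (52.4% to 85.4%) (log2 1.54 ± 0.83). CTSB rs71518539 G>A, in the lysosomal protease cathepsin B (chromosome 8, 11842524 to 11868087), rose by 1.16 ± 0.55, and TSNARE1 rs72687374 G>A, in a gene for a protein with a t-SNARE domain (chromosome 8, 142212080 to 142407029), by 0.82 ± 0.43. In these 4 the reference oligo was below the pool, at -1.29 ± 0.66, -1.42 ± 0.60, -1.79 ± 0.56 and -1.24 ± 0.36, and the alternative oligo was nearer to it, at 0.26 ± 0.34, 0.13 ± 0.35, -0.63 ± 0.18 and -0.42 ± 0.27. VPS13C rs2059471 T>G, whose gene encodes a bridge for lipids between organelles and is linked to Parkinson disease (chromosome 15, 61852389 to 62060447), fell from a median of 43.3% (36.9% to 45.6%) to a median of 23.6% (16.9% to 34.8%) (log2 -1.16 ± 0.59), with the low level in the G oligo (-1.25 ± 0.70) and the T oligo at -0.08 ± 0.21. None of the 5 kept its call in every fit with 1 replicate left out. The call was lost for ATG13 rs7113453 G>A without replicate 1, 2 or 3 (1.39 to 1.74 over the 6 fits), C16orf62 rs116582019 C>A without replicate 1, 2, 5 or 6 (1.30 to 1.75 over the 6 fits), CTSB rs71518539 G>A without replicate 2, 3, 4, 5 or 6 (1.03 to 1.33 over the 6 fits), TSNARE1 rs72687374 G>A without replicate 1, 2, 4, 5 or 6 (0.75 to 0.95 over the 6 fits) and VPS13C rs2059471 T>G without replicate 1, 3, 5 or 6 (-1.32 to -1.01 over the 6 fits). Limma ended all 5 (adjusted p from 0.0791 to 0.151).

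Other calls were in genes of nuclear and ubiquitin proteins and in ORAOV1. ORAOV1 rs73522762 A>C, in a gene now named LTO1 (chromosome 11, 69665563 to 69675353), rose by 1.07 ± 0.42 and its C oligo was well above the pool (1.48 ± 0.19). WDR12 rs148513392 C>G, in a ribosome biogenesis factor (chromosome 2, 202874261 to 202911673), was lower (log2 -0.94 ± 0.40). ZFP64, a zinc finger transcription factor gene (chromosome 20, 52084011 to 52191779), had both alternatives of rs79646797 below the shared G reference, G>T at -2.37 ± 1.14 and G>A at -1.41 ± 0.72. The T allele fell from a median of 34.8% (32.6% to 37.5%) to a median of 9.50% (2.72% to 23.04%) of the counts of G and T, with the largest log2 SD among the calls. KCTD10 rs11540749 G>A, in a substrate adaptor of the cullin 3 ubiquitin ligase (chromosome 12, 109448655 to 109477300), had the smallest effect called (log2 -0.59 ± 0.21), at a mean of 3674 DNA counts for its rarer allele. RNF187 rs10916331 A>G, in a RING finger ubiquitin ligase gene (chromosome 1, 228487382 to 228496188), fell as well (-0.98 ± 0.42). Calls were kept with each replicate left out for ORAOV1 and KCTD10. They were lost for WDR12 rs148513392 C>G without replicate 2, 4, 5 or 6 (-1.01 to -0.76 over the 6 fits), ZFP64 rs79646797 G>T without replicate 1 or 5 (-2.69 to -2.07 over the 6 fits), ZFP64 rs79646797 G>A without replicate 1, 2, 4, 5 or 6 (-1.64 to -1.22 over the 6 fits) and RNF187 rs10916331 A>G without replicate 1, 2, 3, 4, 5 or 6 (-1.06 to -0.87 over the 6 fits). Limma ended those of ORAOV1, WDR12, ZFP64 G>A, KCTD10 and RNF187 (adjusted p from 0.0603 to 0.142).

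Outside these groups, SFTA2 rs2532925 C>T, in a surfactant associated gene of the MHC region (chromosome 6, 30931353 to 30932170), rose from a median of 61.97% (61.1% to 65.1%) in DNA to a median of 80.0% (72.1% to 84.3%) in RNA (log2 1.22 ± 0.39). NHLRC3 rs9576711 G>T (chromosome 13, 39038311 to 39050109) fell (log2 -1.04 ± 0.49), as did CCDC122 rs9533632 G>A (chromosome 13, 43819018 to 43879740; -0.75 ± 0.34). C1orf106 rs2275487 G>A, in a gene now named INAVA that acts in innate immune signalling (chromosome 1, 200891531 to 200915742), rose by 0.82 ± 0.43. SFTA2 kept its call with each replicate left out. Calls were lost for NHLRC3 rs9576711 G>T without replicate 1, 2, 3 or 6 (-1.18 to -0.91 over the 6 fits), CCDC122 rs9533632 G>A without replicate 1, 2, 3, 4 or 5 (-0.83 to -0.64 over the 6 fits) and C1orf106 rs2275487 G>A without replicate 1, 2, 4, 5 or 6 (0.73 to 0.92 over the 6 fits), and limma ended these 3 (adjusted p = 0.0865, 0.123 and 0.149). C1orf106 also lost it with TMM scaling (edgeR adjusted p = 0.0525) and with at least 50 DNA counts in the filter (0.0516).

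Set against the typical oligo, low oligos were more common than high ones, among the called pairs as among all well-covered variants. In 24 of 37 the less active oligo was more than log2 0.5 below the pool, in 12 the more active oligo was more than log2 0.5 above it, and 1 pair had both. Of all 18980 oligos of well-covered variants, 14.3% lay more than log2 0.5 below the pool and 2.44% above. A pair count takes the lower or the higher of 2 oligos, so it cannot be set directly beside these shares of single oligos. The oligo farther from the pool was the alternative one in 18 called pairs and the reference one in 19. These counts come from the same libraries as the calls and describe them.

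Where a SNP was built with more than 1 alternative base, the alternatives can be compared with each other without the reference oligo that they share. There were 1791 such pairs of well-covered alternatives at 1461 SNPs, and 8 differed (edgeR quasi-likelihood test, Benjamini-Hochberg adjustment over all pairs, 0.447%; 9 with limma). In PDLIM5 rs1139697 the G oligo was above the C oligo by log2 3.19 ± 0.58 (SD, n = 6, adjusted p = 3.48e-08), and the C alternative itself was at 0.50 ± 0.49 against the T reference. In MAP2K5 rs12900208 the G oligo was below the A oligo (G over A at log2 -1.69 ± 0.47), and the A alternative was at -0.01 ± 0.40 against C. ADH1C rs2298753 had its G oligo above its C oligo by 1.52 ± 0.64, with A>G at -0.08 ± 0.65. GNAL rs77723282 had T below C (T over C at -1.21 ± 0.35), with G>T at -0.31 ± 0.44. At these 4 SNPs the called base thus stood apart from the other alternative as well as from the reference.

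CCDC122 rs9533632 was tested with all 3 alternative bases, and its C oligo was above its A oligo by log2 1.01 ± 0.15 (edgeR adjusted p = 3.17e-05). Against the G reference the A, T and C alternatives were at -0.75 ± 0.34, -0.69 ± 0.54 and 0.26 ± 0.23, and of these only A was called. T over C was at -0.95 ± 0.60 and did not pass (edgeR adjusted p = 0.0503). Differences were also found at SNPs where no alternative was called against the reference. In RPRD2 rs45595332 the T oligo was above the G oligo by 0.80 ± 0.24, with C>A, C>G and C>T at -0.03 ± 0.33, -0.67 ± 0.30 and 0.13 ± 0.26. In RNF115 rs12119151, in a RING finger ubiquitin ligase gene, T was below G (T over G at -1.62 ± 0.41), and in CAST rs7063, in the calpain inhibitor calpastatin, T was below C (T over C at -0.84 ± 0.27).

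Other called SNPs had alternatives for which no difference was detected. CHRNB4 rs80037964 C>A, C>G and C>T were at 0.72 ± 0.40, 0.57 ± 0.43 and 0.69 ± 0.59, and the 95% intervals (limma) of their differences ran from -0.56 to 0.26 for G over A, from -0.39 to 0.32 for T over A and from -0.32 to 0.55 for T over G. In TMEM245 rs58928086 the interval of C over A was -0.31 to 0.33. For C1orf106 rs2275487 it was -0.58 to 0.41 (T over A), for SFTA2 rs2532925 -0.40 to 0.76 (T over G) and for WDR12 rs148513392 -0.33 to 0.64 (T over G). The uncalled alternatives were at 0.74 ± 0.67 for C1orf106 G>T, 1.04 ± 1.03 for SFTA2 C>G and -0.79 ± 0.54 for WDR12 C>T. ZFP64 T over A had a wide interval, -2.28 to 0.22, and that of DGKI rs2351138 T over A was -0.22 to 0.70 (G>T at -0.56 ± 0.59). SPTSSB rs163327 C over A was at -0.68 ± 0.31, ZDHHC5 rs1783979 C over A at -0.64 ± 0.43 and GAB2 rs112191911 T over A at -0.63 ± 0.66, none past the threshold (adjusted p = 0.3, 0.383 and 0.582). Their other alternatives were at 1.16 ± 0.92 for SPTSSB T>C, 0.37 ± 0.34 for ZDHHC5 T>C and 0.37 ± 0.52 for GAB2 G>T. Of the SNPs with 3 well-covered alternatives, TMEM161B rs113637209 C>A, C>G and C>T (-0.34 ± 0.18, -0.31 ± 0.18 and -0.46 ± 0.18) and KCTD2 rs9915968 G>A, G>C and G>T (0.23 ± 0.71, 0.77 ± 0.23 and 0.87 ± 1.28) had no call. The alternatives of a SNP share its reference counts, so that their effects against the reference are not independent.

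A call at one SNP was seldom joined by another in the same 3′ UTR. Of all well-covered variants only 0.359% were called. Of the 34 genes with a call, CXCL12 had calls at 2 SNPs, and TMEM245 and ZFP64 had 2 calls at a single SNP. The 40 other well-covered variants of CTSB ranged from -1.15 to 0.84, with 1 at an unadjusted p under 0.05. The 30 other well-covered variants of SLC39A8 ranged from -0.33 to 0.61, the 43 other well-covered variants of ORAOV1 ranged from -0.72 to 0.43 and the 26 other well-covered variants of GAB2 ranged from -0.59 to 1.07, none of them with an unadjusted p under 0.05. Among the 3 others of STAT6 the range was -0.30 to 0.08, and among the 19 others of PDLIM5 it was -0.36 to 1.25. More of the other variants had an unadjusted p under 0.05 in C1orf106 (4 of 16), CCDC122 (4 of 17), CHRNB4 (4 of 13) and SPTSSB (4 of 13), in part at the same SNP. ISCU had 3 of 9, VPS13C 3 of 15 and DGKI 3 of 24. Over all well-covered variants the share was 8.36%.

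The 5 genes with the most well-covered variants held 1 call among 364 (0.275%), a share near the 0.359% of all well-covered variants. There were 104 at 88 SNPs in GRIN2B, an NMDA receptor subunit gene (chromosome 12, 13537337 to 13982134), and none was called. Their effects ran from -0.54 to 1.16 with a median size of 0.23, and 8 had an unadjusted p under 0.05. HLA-DPB1, the beta chain of a class II antigen presenting molecule (chromosome 6, 33075990 to 33089696), had 98 with no call, from -1.71 (rs9296077 C>T) to 1.08 (rs73743106 T>C), and 17 with an unadjusted p under 0.05. JRK had 65 variants from -1.28 to 0.94 and SUGT1 53 from -0.62 to 0.61, with no call in either. ORAOV1 had 1 call among 44. Over all well-covered variants the median size was 0.21, and 8.36% had an unadjusted p under 0.05.

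Grouped by gene lists, the calls were spread thinly. Of the lysosome, endosome and autophagy list 4 of 183 were called (2.19%, 3 higher and 1 lower: ATG13, C16orf62, CTSB and VPS13C), with a median effect of -0.03 and a median size of 0.26. The cytokine and innate immune list had 3 of 184 (STAT6 and both CXCL12 variants; median size 0.26). The Parkinson list had 3 of 300 (CTSB, VPS13C and C16orf62, which entered through its present symbol VPS35L and is not the Parkinson gene VPS35). The psychiatric list had 2 of 231, TSNARE1 and CHRNB4. The zinc finger list had 2 of 508, both at the 1 ZFP64 SNP. There was 1 call each among 213 solute carrier (SLC39A8), 182 MAP kinase and phosphatase (MAP2K5), 363 ubiquitin ligase (RNF187), 214 cell adhesion (SEMA4F), 198 Alzheimer (CTSB) and 34 monoamine, opioid, cannabinoid and cholinergic variants (CHRNB4). The lists overlap, and their shares stand beside 0.359% of all well-covered variants. No list was tested as a set, and all lists, those below included, were chosen with earlier results of these data known.

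The alcohol and aldehyde list had 1 of 23 called, ADH1C rs2298753 A>C. Unadjusted p-values were under 0.05 for 9 of its 23 variants (39.1%, at 8 SNPs, 3 higher and 6 lower), against 8.36% of all well-covered variants. The lower ones were all in alcohol dehydrogenase genes: besides ADH1C, ADH4 rs2851249 A>G (-0.56 ± 0.36) and A>T (-0.55 ± 0.42), ADH4 rs2602895 G>A (-1.03 ± 1.18), ADH6 rs28720166 G>A (-0.86 ± 0.38) and ADH1B rs1042026 A>G (-1.45, with an SD larger than its size). The 3 higher ones were in ALDH4A1, a proline catabolism enzyme that entered the list by its symbol, with rs1138267 T>G at 0.39 ± 0.17. Other alcohol dehydrogenase variants were not lower beyond their spread. These were ADH4 rs29001237 G>A (0.33 ± 0.96) and rs1139490 G>A (0.33 ± 1.92), ADH1A rs546438511 G>A (-0.09 ± 0.81) and ADH1C rs2298753 A>G (-0.08 ± 0.65). In microglia ADH1B rs1042026 was at 0.32, while the other lower ones kept their sign. Of the 23, 3 were called in microglia, where 2.12% of all well-covered variants were. These were ADH1C rs2298753 A>C, ADH4 rs2851249 A>G (-0.78) and ADH4 rs2602895 G>A (-1.23), with edgeR adjusted p = 5.77e-09, 0.00298 and 7.3e-05. In SH-SY5Y none apart from ADH1C passed after adjustment (lowest adjusted p = 0.212, edgeR). The variants other than ADH1C and ALDH4A1 rs1138267 are named after their values were seen.

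Lists without a call included those of GABA and glutamate, ion channel and synaptic genes, which were not limited to genes of neurons. None of 132 GABA and glutamate variants was called, and the lowest p-values were those of GRIN2B rs534077199 G>A at -0.51 ± 0.39 and GRIN2B rs2193149 C>G at 0.55 ± 0.45, which also led the 127 variants of the autism and epilepsy list. Of 81 ion channel variants, KCNN3 rs6696760 C>T, in a calcium-activated potassium channel gene, was at 0.70 ± 0.47 and TRPV5 rs4252511 T>A at 0.89 ± 0.78. Of 124 synaptic variants, SYNJ1 rs114913358 C>T, in the phosphoinositide phosphatase of vesicle recycling, was at 0.80 ± 0.42 and STX11 rs7772146 A>G at -0.84 ± 0.70. HLA and antigen presentation genes had no call among 292, with 32 at an unadjusted p under 0.05 (11%, against 8.36% of all well-covered variants). The nearest there were HLA-DPB1 rs1042488 T>C (-1.26 ± 0.58, edgeR adjusted p = 0.0666) and rs1042544 A>G (-0.81 ± 0.46). Near-identical HLA fragments could share reads in the authors' counting, which would make these values uncertain. This was not tested.

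RNA-binding and microRNA genes had no call among 95, led by RBM26 rs3187338 G>A (1.22 ± 0.66) and EIF2S1 rs10131175 C>G (0.70 ± 0.50), the alpha subunit of a translation initiation factor. The 63 ALS and frontotemporal dementia variants were led by TNIP1 rs2233311 G>T (-0.29 ± 0.18) and MOBP rs77965838 C>T (-0.72 ± 0.87), the 92 chromatin variants by MED12L rs62285907 A>G (-0.72 ± 0.57) and TAF6 rs13309 T>A (-0.73 ± 0.42), and the 37 histone variants by H1FOO rs115782755 C>T (0.46 ± 0.43) and H1FNT rs76054343 T>C (0.47 ± 0.46), 2 germ cell H1 histones. None of these passed. In lists with calls, the next variants were RNF115 rs12119151 A>T (-1.17 ± 0.64, edgeR adjusted p = 0.0592), PPP1R3B rs408773 A>T (1.19 ± 0.80), a glycogen-targeting phosphatase subunit gene, PLXND1 rs60340844 C>A (-1.11 ± 0.80), a semaphorin receptor gene, SLC8A3 rs10483823 C>A (0.74 ± 0.39), a sodium-calcium exchanger gene, and MAPT rs7521 A>C (0.91 ± 0.74), the gene of the microtubule protein tau. Their adjusted p-values were 0.083, 0.228, 0.263 and 0.314 by the same test.

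By base change, no class had a median effect away from 0 by more than log2 0.04. G>A changes held the most calls, 12 of 1905 (0.63%; 8 higher and 4 lower), while C>T changes of nearly the same number held 1 of 1844. The T>A and C>A changes had 3 calls each of 394 and 502 (0.761% and 0.598%), all higher. C>G changes had 4 of 560 (0.714%) and A>T changes 0 of 389. The share over all well-covered variants was 0.359%. The classes hold few calls and were not tested against it. The median effect of C>G was -0.04, with the 6 replicate medians from -0.0688 to -0.00372. Variants that gained a G or C (3519) had a median of -0.00158 and replicate medians from -0.0354 to 0.0532. Those that lost one (4838) were at -0.00603 (-0.0344 to 0.00698). Calls were 0.31% of transitions and 0.441% of transversions. The table gives no strand for the alleles, so a base named here may be that of either strand of the fragment.

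Within the well-covered variants the calls lay at the deep end. None of 2787 with 200 to 400 counts for the rarer allele was called, 7 of 3965 with 400 to 800 and 30 of 3551 above (0.845%). The median replicate SD was 0.95, 0.67 and 0.46 in these bins, against 0.42, 0.31 and 0.22 in microglia. The 2728 tested variants under the minimum had 15 calls (0.55%), 4 higher and 11 lower, of which 10 lay at 10 to 50 counts. Their sizes, from 3.19 to 7.07, were above those of the well-covered calls other than STAT6 and PDLIM5. In this group 10.1% had an unadjusted p under 0.05 and 1.76% had no overlap of RNA and DNA. In all 15 the allele that was rarer in DNA was the lower one, as in 63.5% of all tested variants under the minimum. This held for 25 of the 37 well-covered calls and 53.0% of all well-covered variants. The RNA count of an allele over 6 libraries was at least 762 for the well-covered calls and went down to 0 for the others.

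Just inside the minimum were SGO1 rs9822963 C>G (-1.43 ± 0.86), SGO1 rs9822963 C>T (-0.85 ± 1.02) and KCNE3 rs9516 C>T (-0.02 ± 1.09), with 200 to 200.2 counts for the rarer allele. Just outside were CYB561 rs73327747 C>T (2.11 ± 1.83) and JRK rs79468655 A>T (0.15 ± 1.33), with no call. The most deeply covered variants had small effects and small errors. HLA-DPA1 rs3211475 A>G, with 6539 DNA counts for its rarer allele, was at -0.10 ± 0.10 (95% interval -0.36 to 0.16, limma). PPP1R3B rs9886459 C>T was at -0.15 ± 0.14, TRIM40 rs3132676 A>G at -0.19 ± 0.34, TREML2 rs2038567 C>G at 0.14 ± 0.20 and ABHD2 rs4932214 G>A at -0.06 ± 0.31.

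The microglia libraries give a second readout that the choice of variants did not use. Of the 37 well-covered variants called in SH-SY5Y, 24 were also called in microglia, all in the same direction, where 2.12% of well-covered variants were called (1.74% of all tested). In 36 the measured sign was the same, with SPTSSB rs163327 T>A as the exception (-0.23 ± 0.31 in microglia). ADH1C was at -1.53 ± 0.23 in microglia, MAP2K5 at -1.72 ± 0.40, SFTA2 at 1.18 ± 0.21 and WDR12 at -1.102 ± 0.42, close to their SH-SY5Y values. Several were farther from 0 in microglia than in SH-SY5Y, among them SLC39A8 (2.77 ± 0.34), C1orf106 (1.23 ± 0.27) and CXCL12 rs1065297 (1.49 ± 0.42), though none of these differences passed. Calls without a microglia call included GAB2 (0.14 ± 0.25), KCTD10 (-0.13 ± 0.19), NHLRC3 (-0.02 ± 0.21), DGKI (-0.16 ± 0.23), TMEM245 T>C (0.10 ± 0.33) and CXCL12 rs169097 (-0.59 ± 0.31). For these too the difference between lines was tested and did not pass (edgeR adjusted p = 0.315, 0.44, 0.101, 0.519, 0.76 and 0.727).

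The difference itself, fitted over all 24 libraries, passed for 3 of the 10303 well-covered variants (0.0291%, background 0.0462%). These were STAT6 (microglia 0.92 ± 0.31, microglia minus SH-SY5Y -2.47), PDLIM5 (microglia 0.62 ± 0.45, -3.08) and SPTSSB (difference -2.06, edgeR adjusted p = 0.0171). SPTSSB lost it without replicate 1, 2, 3 or 4 (-2.29 to -1.70 over the 6 fits). Same-numbered RNA libraries of the lines deviated together. Taken as SH-SY5Y reads counted in the microglia libraries (shared counts), this would be 2.25% to 5.09% of the microglia counts. That reading was assumed and was not tested. With shared counts subtracted on that assumption, the microglia effects of STAT6 and PDLIM5 were 0.47 and 0.21. STAT6 was no longer called there, PDLIM5 was not called with or without the subtraction, and 22 of the 37 were called in microglia. ORAOV1 was the other call to end (0.43). After the subtraction 35 of the 37 had the same sign in both lines. NHLRC3, at 0.02 in microglia, then differed in sign as SPTSSB did.

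In the other direction, 194 well-covered variants were called in microglia and not in SH-SY5Y. Their SH-SY5Y effect had the microglia sign in 180, with an unadjusted p under 0.05 in 103, and 0 passed the test of the difference. Among the largest, TXNRD2 rs58210408 G>T, in the mitochondrial thioredoxin reductase, was at 1.73 ± 0.77 in SH-SY5Y and 1.74 ± 0.58 in microglia. TRIM26 rs7843 T>C was at 1.24 ± 0.70 and 2.16 ± 0.68, RBM26 rs3187338 G>A at 1.22 ± 0.66 and 1.78 ± 0.30, and ITGA8 rs878321 C>T (an integrin) at 1.14 ± 1.27 and 1.63 ± 0.36. PTGIS rs5594 C>T (2.31 ± 2.12 and 1.65 ± 0.63), PARD6G rs8099311 T>C (-1.93 ± 2.05 and -1.81 ± 0.44) and AGK rs6943245 C>T (-0.93 ± 1.26 and -1.74 ± 0.65) had spreads over log2 1 in SH-SY5Y. SNX8 rs62442512 C>T, in a sorting nexin gene, was at -1.98 ± 0.53 in microglia and 0.01 ± 0.67 in SH-SY5Y, where 3 of 6 replicates lay above 0 (difference -1.996, edgeR adjusted p = 0.0506). Across all 10303 well-covered variants the effects in the lines correlated at r = 0.30 and rho = 0.20, and at 0.25 and 0.16 after the subtraction, over variants that share oligos and libraries.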

How the data were processed

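Of the 24 libraries described per the labels (DNA and RNA of SH-SY5Y and of microglia, 6 of each), the SH-SY5Y ones carry the report. The authors deposited counts per variant and allele, with no depth scaling. Cutadapt 2.7, UMI-tools 1.0.0, Bowtie2 and SAMtools 1.10 are named with build hg38, per the submitters' processing notes. Per the labels' protocols the RNA primer carried a molecular identifier. Whether DNA counts were collapsed, the mapping settings and the strand of the alleles are not given in the sources used here. A read error at the variant base could count for the other allele, which could shrink effects.

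In edgeR 4.0.16 (R 4.3.3), both alleles of a library were fitted as separate columns, blocked on library and offset by its total count. The quasi-likelihood test (legacy = TRUE) was of the allele effect in RNA over DNA, over all variants whose alleles both averaged 10 or more DNA counts, with Benjamini-Hochberg adjustment over all of them. The ± values are SDs over 6 RNA replicates of log2 ratios (pseudocount 0.5) against the DNA mean. They leave out the spread of the DNA libraries. Intervals come from limma 3.58.1 on the same ratios, and DESeq2 1.42.0 was an alternative. The functions were tested on simulated data. The named variants are all calls, the 2 lowest p-values of each gene list, other alternatives at called SNPs, variants at the coverage minimum, the 5 most covered, the 8 largest microglia calls not called in SH-SY5Y, differences between lines and 5 SNPs with 3 alternatives. Members and lists were chosen with earlier results of these data known, and the comparison of alternatives and the subtraction of shared counts were added after seeing the data. Some named variants, calls among them, are not reported here. Gene positions are RefSeq's (GRCh38.p14), which held 1551 of 1637 table names as current symbols and 73 as an older symbol of 1 gene.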

Additional observations from a re-analysis of the deposited data

Results flagged for a closer look

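For 11 of 98 named well-covered variants, 1 replicate stood apart from the other 5 by the gap test of Dixon, which chance alone flags in about 1 of 20 sets. Among the calls these were ADH1C rs2298753 A>C (replicate 3 at -2.49, nearest other -1.57, farthest -1.27), SLC39A8 rs151371 G>A (replicate 3 at 2.80, nearest other 1.73, farthest 1.34), WDR12 rs148513392 C>G (replicate 3 at -1.75, nearest other -0.86, farthest -0.70), SPTSSB rs163327 T>A (replicate 6 at 3.53, nearest other 1.91, farthest 1.19) and DGKI rs2351138 G>A (replicate 5 at -0.17, nearest other -0.78, farthest -1.04). Replicate 3 was the one apart in 3 of the 5. Without replicate 3, ADH1C, SLC39A8 and WDR12 kept their calls, while the calls of DGKI and WDR12 were lost in other fits as given above.

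The same was seen for HLA-DPB1 rs1042488 T>C (replicate 5 at -0.12, nearest other -1.28, farthest -1.77), PPP1R3B rs408773 A>T (replicate 1 at 2.77, nearest other 1.24, farthest 0.54), STX11 rs7772146 A>G (replicate 1 at -2.20, nearest other -0.78, farthest -0.12), TREML2 rs2038567 C>G (replicate 5 at 0.54, nearest other 0.14, farthest 0.02), AGK rs6943245 C>T (replicate 1 at 1.66, nearest other -0.92, farthest -1.75) and RPRD2 rs45595332 C>T (replicate 2 at 0.66, nearest other 0.09, farthest -0.05), none of which was called.

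The allelic effect differed between the lines for STAT6 rs324015 A>G by log2 -2.47 (microglia minus SH-SY5Y), for PDLIM5 rs1139697 T>G by -3.08 and for SPTSSB rs163327 T>A by -2.06.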

How the results depend on the processing

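No SH-SY5Y effect of a named variant that passed there changed sign under any alternative. Of the 37 calls, 9 passed in every alternative (STAT6, PDLIM5, ADH1C, TTYH3, SLC39A8, SFTA2, GAB2, MAP2K5 and ISCU) and 12 in all fits with 1 replicate left out. The count was 38 with TMM (21 higher, 17 lower), 41 with at least 1 and 36 with at least 50 DNA counts in the filter. DESeq2 gave 223 (103 higher, 120 lower), with all 37 among them. Limma gave 15 (9 higher, 6 lower), 14 of them shared, and the same with a pseudocount of 1. The newer quasi-likelihood method of edgeR gave 52 (28 higher, 24 lower), with all 37 among them. Leaving out 1 replicate gave 20 to 29 (11 to 16 higher, 7 to 13 lower), with fewer samples. With the replicate block the count was 28 (19 higher, 9 lower), 26 of them shared. Among the calls it ended were CXCL12 rs169097, TSTA3, GNAL, TMEM245 T>C, TMEM245 T>A, DGKI, CCDC122, RNF187, TSNARE1 and CHRNB4 (edgeR adjusted p from 0.0548 to 0.115). The main fit did not take the numbers as pairs. In SH-SY5Y the allele ratios of same-numbered DNA and RNA libraries deviated together by r = 0.0097 to 0.0553. The highest r with a library of another number was 0.0109 to 0.0225. In microglia r was 0.0196 to 0.0669 for the same number and at most 0.0161 for another. Small values of r do not show that the numbers are not pairs, and pairing was not tested. A coverage minimum of 100 gave 11816 variants with 38 calls and one of 400 gave 7516 with 37. In microglia the count of 218 was 123 with limma, 233 with the replicate block, 216 with shared counts subtracted and 161 to 185 without 1 replicate. The difference between lines passed for 17 with DESeq2, 3 with limma, 2 with the replicate block (SPTSSB lost it, edgeR adjusted p = 0.0517), 2 to 3 without 1 replicate and 5 with shared counts subtracted, where EFNA3 rs2306124 A>G (-0.67) and SNX8 (-2.09) were added. The causes of these shifts were not tested. The median SD of the log2 allele ratio in SH-SY5Y RNA was 0.64 against 0.0878 expected from counting error alone.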
